A study of Mus musculus with 12 samples.

Results

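The genes described here encode the subunits of the transcription factor NF-kappaB and the inhibitors that hold its activity back, measured in thymocytes of mice with mutations in Bcl11b. They were chosen by symbol as the 10 listed features named Nfkb1, Nfkb2, Rela, Rel, Relb, Nfkbia, Nfkbie, Nfkbid, Bcl3 and Tnfaip3, out of 23234 features in the expression table. Of the 10 genes, 9 had a mean of at least 1 FPKM (a fragment count scaled to transcript length and library size) over all libraries and were tested among 10780 features. Bcl3 fell below that level and is given by its values.

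RNA-seq of sorted CD24hiTCRblo pre-selection CD4+CD8+ (double positive, DP) thymocytes of the C57BL/6 strain gave 12 libraries. Of these, 5 came from wild-type newborn thymus, 3 from newborn Bcl11bm/m mice and 4 from Bcl11bfl/fl:Cd4-Cre mice, whose age the labels do not give. The Bcl11bm allele is a germline hypomorphic allele, carried through all earlier stages of T cell development, whose product, truncated by a frameshift, lacks the last zinc finger. In Bcl11bfl/fl:Cd4-Cre mice Cre is driven by Cd4 regulatory sequences and inactivates Bcl11b only from about the DP stage on. The sample titles and the design text give these genotypes, whereas some descriptions (those of wild-type and of the deleted samples) give a different one, and the titles were followed. Nothing in the labels says that the libraries of a group came from separate animals, so p-values measure the spread between these libraries, which may be technical.

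In resting lymphocytes NF-kappaB dimers are kept in the cytoplasm by IkappaB proteins, and signals from antigen, cytokine or TNF family receptors activate the IkappaB kinase (IKK), which marks IkappaB for destruction and frees the dimers to enter the nucleus. Several inhibitors, among them IkappaB alpha and the deubiquitinase encoded by Tnfaip3, are themselves NF-kappaB targets, which gives the pathway its negative feedback. In the thymus the pathway is known for its part in the survival and selection of thymocytes and in the development of regulatory T cells.

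The labels were first checked on the targeted gene. Bcl11b was at 132 to 292 FPKM in wild-type, 430 to 482 FPKM in Bcl11bm/m and 115 to 140 FPKM in the Bcl11bfl/fl:Cd4-Cre libraries. It was higher in Bcl11bm/m than in wild-type (adjusted p = 0.0279 by limma), a call kept in 3 of 8 fits with a library left out (adjusted p up to 0.0927), while the difference of -0.68 on the log2(FPKM + 1) scale between Bcl11bfl/fl:Cd4-Cre and wild-type had an adjusted p = 0.0828 by limma. A value per gene cannot show a truncated transcript or the loss of a single exon, so this level does not test the deletion. The table holds no read numbers, and the steps between low FPKM values gave estimates of 3960000 to 6930000 fragments in wild-type, 2750000 to 4200000 in Bcl11bm/m and 11080000 to 45840000 in the Bcl11bfl/fl:Cd4-Cre ones, so depth moved with genotype. Of the genes that mark DP thymocytes, Rag1, a subunit of the recombinase, was between 438 and 1564 FPKM in all libraries, whereas Ptcra, which encodes the pre-TCR alpha chain, was at 29.3 to 44.5 FPKM in wild-type, 5.33 to 12.2 FPKM in Bcl11bm/m and 8.97 to 67.0 FPKM in the Bcl11bfl/fl:Cd4-Cre libraries. Genes of other populations moved with genotype and are given after the members.

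The positions of the genes are on NCBIM37 (mm9) with the GENCODE vM1 annotation. Nfkb1 lies on chromosome 3 from 135247619 to 135354511 on the minus strand, Nfkb2 on chromosome 19 from 46379227 to 46386580 on the plus strand and Rela on the same chromosome from 5637483 to 5648130 on the plus strand. Rel lies on chromosome 11 from 23641514 to 23670970 and Relb on chromosome 7 from 20191566 to 20214787, both on the minus strand. Among the inhibitors, Nfkbia lies on chromosome 12 from 56590398 to 56593634 on the minus strand, Nfkbie on chromosome 17 from 45692665 to 45700118 on the plus strand and Nfkbid on chromosome 7 from 31206751 to 31213765 on the plus strand. Bcl3 lies on chromosome 7 from 20393811 to 20408119 and Tnfaip3 on chromosome 10 from 18720716 to 18735463, both on the minus strand. Nfkb2 overlaps Psd, and Bcl3 overlaps Gm16175 and Gm16174, each on the opposite strand. Whether the counting used strand is not given in the sources used here, so reads from the overlaps cannot be told apart.

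Promoters are shown because feedback in this pathway runs through binding of NF-kappaB upstream of its own inhibitors. RefSeq promoter windows on GRCm38.p6, reaching from 250 bases before to 50 bases after a transcription start, were matched by symbol and covered 8 of the 10 genes with 13 windows. Nfkb1 and Relb had no window, so their promoters were not searched. The windows were searched on both strands for the kappaB motif in its consensus of 10 bases. A match was found in 9 of the 13 windows and in 7 of the 8 genes, Rela being the one without, against 4.505% of all 32851 windows and 5.14% of the 27025 genes with a window. Of the 3 Nfkb2 windows, those at the downstream starts overlap each other. They share a match (GGGACTTTCC), the only match of the last window, so their counts are not independent. A match is a description of the letters and does not show binding. The 250 bases before the start are printed for Nfkb2 and Nfkbie, which each passed a comparison, and for Nfkbia, the best known feedback inhibitor of the pathway, with matches in capitals, 5′ to 3′ on the strand of the gene. The Nfkb2 stretch is chr19:46304487-46304736 on the plus strand with matches from 39 and 11 bases before the start, the Nfkbia stretch is chr12:55492648-55492897 on the minus strand with a match from 29 bases before the start, and the Nfkbie stretch is chr17:45555450-45555699 on the plus strand with a match from 106 bases before the start.
Nfkb2: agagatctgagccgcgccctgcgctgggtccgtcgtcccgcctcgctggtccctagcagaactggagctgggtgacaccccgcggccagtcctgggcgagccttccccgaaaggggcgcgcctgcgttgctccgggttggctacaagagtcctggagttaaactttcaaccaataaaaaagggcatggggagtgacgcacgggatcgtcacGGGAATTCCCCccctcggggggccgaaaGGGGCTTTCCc
Nfkbia: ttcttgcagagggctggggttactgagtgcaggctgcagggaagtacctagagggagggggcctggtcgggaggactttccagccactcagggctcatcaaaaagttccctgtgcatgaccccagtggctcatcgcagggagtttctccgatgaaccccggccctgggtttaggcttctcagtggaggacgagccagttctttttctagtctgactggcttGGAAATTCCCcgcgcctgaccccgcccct
Nfkbie: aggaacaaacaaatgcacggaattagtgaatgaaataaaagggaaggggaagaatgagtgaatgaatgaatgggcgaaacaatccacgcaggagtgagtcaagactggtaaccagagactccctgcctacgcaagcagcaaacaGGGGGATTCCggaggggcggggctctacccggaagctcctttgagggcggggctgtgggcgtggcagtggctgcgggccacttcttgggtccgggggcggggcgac
In the Nfkbid window that starts at 30422156 on chromosome 7, matches began 226 and 181 bases before the start. In Tnfaip3 they began 125 and 12 bases before the start in 1 of its windows, in Rel 92 bases before it, and in Bcl3 the match lay 2 bases after it.

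The question of the comparisons is how the level of each gene differs between DP thymocytes with normal, hypomorphic and late-deleted Bcl11b. Among the subunits, Nfkb1 differed most from wild-type in both mutants, while Rela, the main activating partner, was close to wild-type in each. Of the inhibitors, Nfkbie rose and Nfkbid fell in Bcl11bm/m thymocytes. Of the 3 IkappaB genes of the set that were tested, none passed in Bcl11bfl/fl:Cd4-Cre thymocytes. None passed between the mutants either, so the mutants were not shown to differ in these genes. In bulk samples a change in the number of cells that express a gene and a change in the RNA per cell cannot be told apart.

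**Figure D1:**
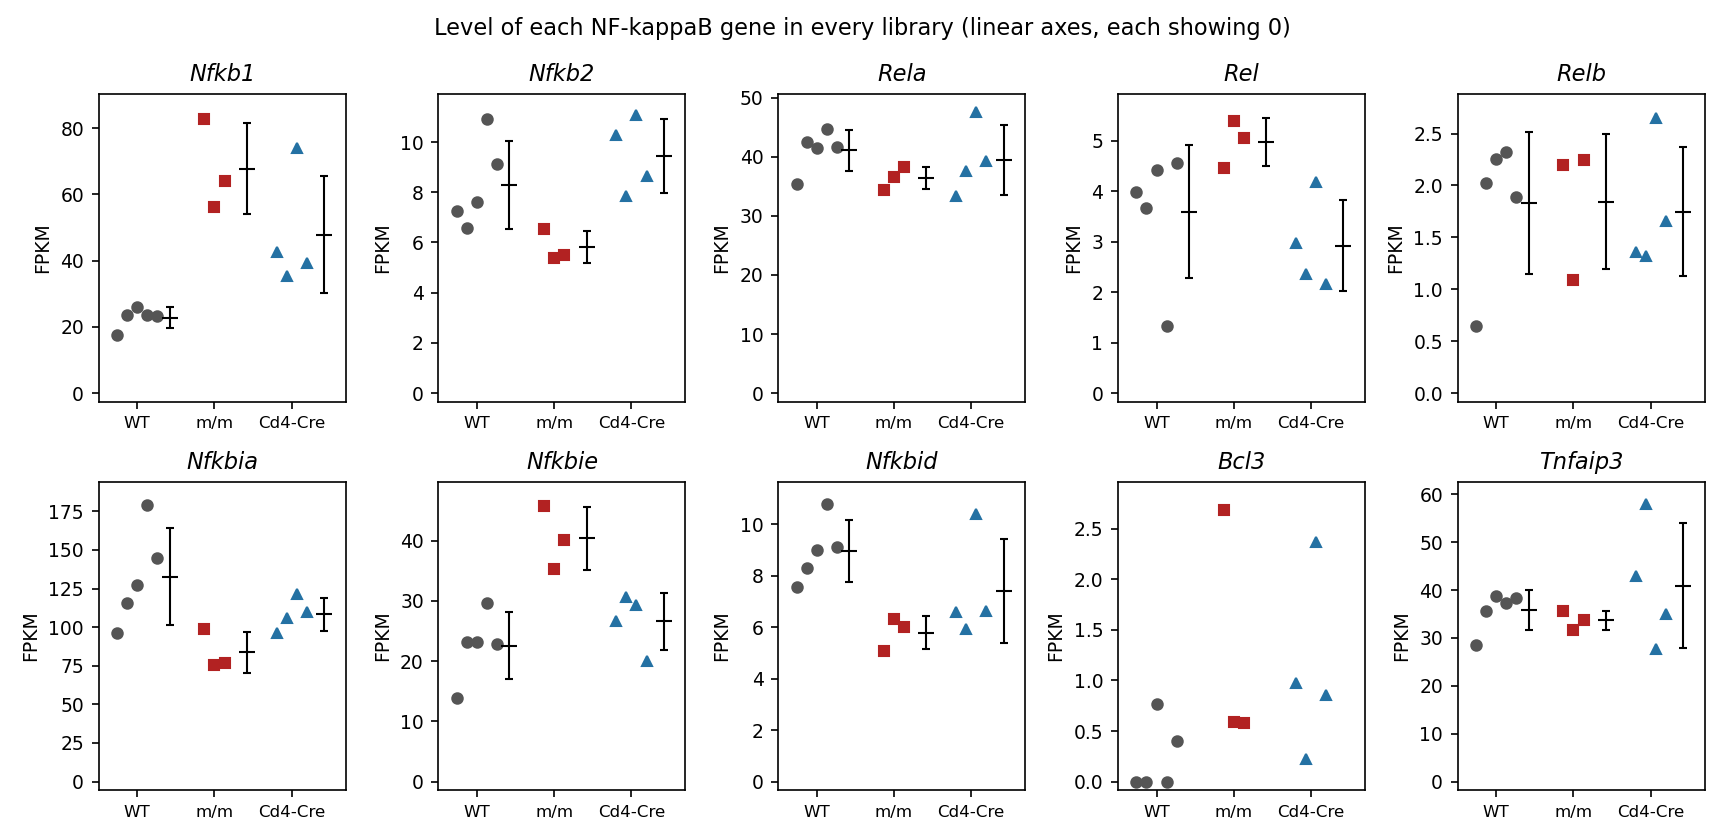
Level of the 10 NF-kappaB genes in each library, in FPKM on linear axes that show 0. Points are libraries of wild-type (WT, 5), Bcl11bm/m (m/m, 3) and Bcl11bfl/fl:Cd4-Cre (Cd4-Cre, 4), and black bars give the mean and SD, left out for Bcl3, which was listed at 0 in 3 wild-type libraries. Nfkb1 lies above every wild-type library in all 7 mutant libraries, and Nfkbie does so in the 3 Bcl11bm/m libraries and in 1 of the 4 Bcl11bfl/fl:Cd4-Cre libraries.

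Nfkb1 encodes a precursor that acts as an IkappaB-like inhibitor and is processed to a DNA-binding subunit without a transactivation domain. Its level was 17.6, 23.5, 25.8, 23.7 and 23.3 FPKM in wild-type, 82.9, 56.3 and 64.2 FPKM in Bcl11bm/m, and 42.5, 35.4, 73.9 and 39.2 FPKM in the Bcl11bfl/fl:Cd4-Cre libraries, each listed here and below in the order of the replicate numbers. Every mutant library lay above every wild-type library, and the mutants overlapped each other, since Bcl11bfl/fl:Cd4-Cre replicate 3 was within the range of Bcl11bm/m. Nfkb1 rose 2.88-fold in Bcl11bm/m on the log2(FPKM + 1) scale (difference 1.52, SE 0.16, 95% interval 1.15 to 1.90, adjusted p = 5.78e-04 by limma). It rose 1.98-fold in Bcl11bfl/fl:Cd4-Cre (difference 0.99, SE 0.21, 95% interval 0.53 to 1.45, adjusted p = 0.0139 by limma). The difference of 0.54 between the mutants did not pass the test (95% interval -0.07 to 1.15, adjusted p = 0.221 by limma), but it was 0.76 with an adjusted p = 0.0351 by limma without Bcl11bfl/fl:Cd4-Cre replicate 3. Without that replicate the rise of Nfkb1 in Bcl11bfl/fl:Cd4-Cre was 0.76 (adjusted p = 0.0217 by limma), and without Bcl11bm/m replicate 1 the rise in Bcl11bm/m was 1.37 (adjusted p = 0.00237 by limma).

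Nfkb2 encodes the second precursor subunit, whose processing is the output of the non-canonical branch. It was at 7.24, 6.58, 7.60, 10.9 and 9.14 FPKM in wild-type, 6.54, 5.39 and 5.48 FPKM in Bcl11bm/m, and 10.3, 7.83, 11.1 and 8.63 FPKM in the Bcl11bfl/fl:Cd4-Cre libraries. The Bcl11bm/m libraries were the 3 lowest of all 12. Nfkb2 was lower in Bcl11bm/m than in the Bcl11bfl/fl:Cd4-Cre libraries, with a difference of -0.61 (SE 0.14, 95% interval -0.95 to -0.28, adjusted p = 0.0401 by limma), and it was the only gene of the 9 that passed the direct comparison of the mutants. Against wild-type the difference was -0.44 in Bcl11bm/m (95% interval -0.83 to -0.04, adjusted p = 0.131 by limma) and 0.18 in Bcl11bfl/fl:Cd4-Cre (95% interval -0.18 to 0.53, adjusted p = 0.492 by limma). The call between the mutants was lost when low features were kept (adjusted p = 0.0543 by limma) and without any one of 6 libraries. The age of the Bcl11bfl/fl:Cd4-Cre mice is not given and their libraries were deeper, and these cannot be told apart from genotype.

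Rela encodes the subunit with the transactivation domain in the most common dimer. It was at 35.4, 42.5, 41.5, 44.7 and 41.7 FPKM in wild-type, 34.4, 36.6 and 38.2 FPKM in Bcl11bm/m, and 33.4, 37.7, 47.6 and 39.2 FPKM in the Bcl11bfl/fl:Cd4-Cre libraries. The groups overlapped, and with coefficients of variation of 5.29 to 15.1% it was among the least variable of the 10 genes. Its difference from wild-type was -0.17 in Bcl11bm/m (95% interval -0.40 to 0.07, adjusted p = 0.318 by limma) and -0.07 in Bcl11bfl/fl:Cd4-Cre (95% interval -0.34 to 0.21, adjusted p = 0.758 by limma), the latter with a sign that turned under every scaling between libraries that was tried. These intervals leave room for a decrease of up to 0.40 in Bcl11bm/m and a change of up to 0.34 in Bcl11bfl/fl:Cd4-Cre.

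Rel, the c-Rel subunit, which T cells use on antigen receptor signals, was at 3.98, 3.66, 4.42, 1.33 and 4.56 FPKM in wild-type, 4.45, 5.39 and 5.06 FPKM in Bcl11bm/m, and 2.97, 2.37, 4.18 and 2.16 FPKM in the Bcl11bfl/fl:Cd4-Cre libraries. Wild-type replicate 4 stood apart at the low end, at an estimated 14.1 fragments. All Bcl11bm/m libraries lay above all Bcl11bfl/fl:Cd4-Cre libraries, with a difference of 0.63 (95% interval 0.19 to 1.07) that missed the threshold (adjusted p = 0.0763 by limma). It passed without Bcl11bfl/fl:Cd4-Cre replicate 3 (0.77, adjusted p = 0.0255 by limma). Relb, the partner of the processed Nfkb2 product, was at 0.647, 2.02, 2.26, 2.32 and 1.89 FPKM in wild-type, 2.20, 1.09 and 2.25 FPKM in Bcl11bm/m, and 1.36, 1.32, 2.65 and 1.66 FPKM in the Bcl11bfl/fl:Cd4-Cre libraries. Its groups overlapped, its differences lay between -0.02 and 0.05 with 95% intervals that reached from -0.58 to 0.62, and the sign of each changed with the scaling or with the library left out. At an estimated 13.8 to 191.5 fragments a library, smaller differences in Relb were not detectable.

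Nfkbia encodes IkappaB alpha, the inhibitor that is degraded and resynthesised within each round of activation. It was the most abundant of the 10 genes in every group, at 96.3, 115, 127, 179 and 145 FPKM in wild-type, 98.8, 75.2 and 77.1 FPKM in Bcl11bm/m, and 95.9, 106, 122 and 110 FPKM in the Bcl11bfl/fl:Cd4-Cre libraries. In Bcl11bm/m, replicates 2 and 3 lay below every wild-type library, whereas replicate 1 lay above wild-type replicate 1. The difference of -0.64 in Bcl11bm/m (SE 0.20, 95% interval -1.10 to -0.17) missed the threshold (adjusted p = 0.0662 by limma). It passed under each of the 3 scalings between libraries, with adjusted p from 0.00607 to 0.00991 by limma, and without wild-type replicate 1 (-0.74, adjusted p = 0.0242 by limma). The difference in Bcl11bfl/fl:Cd4-Cre was -0.26 (95% interval -0.65 to 0.13, adjusted p = 0.342 by limma). Between the mutants the difference was -0.37 (95% interval -0.68 to -0.07, adjusted p = 0.115 by limma). It passed in 4 of 8 alternatives that kept every library, with an adjusted p down to 0.0191 by limma, and in 0 of 7 fits with a library left out.

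Nfkbie encodes IkappaB epsilon, an inhibitor that responds to NF-kappaB later than IkappaB alpha. It was at 13.9, 23.2, 23.3, 29.6 and 22.8 FPKM in wild-type, 45.8, 35.4 and 40.1 FPKM in Bcl11bm/m, and 26.7, 30.7, 29.3 and 20 FPKM in the Bcl11bfl/fl:Cd4-Cre libraries. The Bcl11bm/m libraries were above all 9 others. Nfkbie rose 1.80-fold in Bcl11bm/m (difference 0.84, SE 0.22, 95% interval 0.35 to 1.34, adjusted p = 0.0303 by limma), and its difference in Bcl11bfl/fl:Cd4-Cre was 0.25 (95% interval -0.20 to 0.71, adjusted p = 0.439 by limma). The direct difference between the mutants was 0.59 (95% interval 0.21 to 0.98, adjusted p = 0.062 by limma), so the mutants were not shown to differ. The rise in Bcl11bm/m was called with 1 of the 5 wild-type libraries left out only when that library was replicate 1 or 4, and was lost without any one Bcl11bm/m library, with adjusted p up to 0.11 by limma. It was also lost when low features were kept in the fit (adjusted p = 0.0569 by limma).

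Nfkbid encodes an atypical nuclear IkappaB protein, IkappaB NS, that binds NF-kappaB dimers on DNA. It was at 7.55, 8.32, 9.01, 10.8 and 9.10 FPKM in wild-type, 5.06, 6.30 and 6.01 FPKM in Bcl11bm/m, and 6.61, 5.94, 10.4 and 6.64 FPKM in the Bcl11bfl/fl:Cd4-Cre libraries. The Bcl11bm/m libraries were below every wild-type library. Of the Bcl11bfl/fl:Cd4-Cre libraries, 3 were also below every wild-type library and replicate 3 was not. Nfkbid fell by 0.55 on the log2(FPKM + 1) scale in Bcl11bm/m (SE 0.14, 95% interval -0.87 to -0.22, adjusted p = 0.0316 by limma), 1.46-fold, and its difference in Bcl11bfl/fl:Cd4-Cre was -0.27 (95% interval -0.63 to 0.10, adjusted p = 0.304 by limma). Between the mutants the difference was -0.28 (95% interval -0.72 to 0.16, adjusted p = 0.361 by limma), so they were not shown to differ. The call in Bcl11bm/m was lost when FPKM were rescaled without short RNA features (adjusted p = 0.0585 by limma) and, as for Nfkbie, without wild-type replicates 2, 3 or 5 or any one Bcl11bm/m library.

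Bcl3, the other atypical nuclear IkappaB gene of the set, was listed at 0 in wild-type replicates 1, 2 and 4, at 0.768 FPKM in replicate 3 and at 0.403 FPKM in replicate 5. It was at 2.69, 0.594 and 0.579 FPKM in Bcl11bm/m and at 0.971, 0.223, 2.37 and 0.857 FPKM in the Bcl11bfl/fl:Cd4-Cre libraries. A floor of 3 fragments corresponds to 0.0397 to 0.661 FPKM, depending on the library, and covers counting error only, so a listed 0 does not show that the gene was silent. It was listed above 0 in all 7 mutant libraries, and the groups overlapped. The two-sided exact permutation test gave p = 0.107 for Bcl11bm/m against wild-type, where 0.0357 was the smallest p the design allows, p = 0.0794 for Bcl11bfl/fl:Cd4-Cre against wild-type, where it was 0.0159, and p = 0.914 between the mutants. Against wild-type, Bcl11bfl/fl:Cd4-Cre passed by the exact permutation test when scaled without short RNA features (p = 0.0476) and without its replicate 2 (p = 0.0357), with p from 0.0357 to 0.179 over all alternatives.

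Tnfaip3 encodes the ubiquitin-editing enzyme that shuts off signals to IKK. It was at 28.6, 35.6, 38.8, 37.4 and 38.4 FPKM in wild-type, 35.6, 31.6 and 33.8 FPKM in Bcl11bm/m, and 43.1, 58.1, 27.7 and 35.0 FPKM in the Bcl11bfl/fl:Cd4-Cre libraries. The groups overlapped. The difference from wild-type was -0.08 in Bcl11bm/m (95% interval -0.36 to 0.20, adjusted p = 0.716 by limma) and 0.15 in Bcl11bfl/fl:Cd4-Cre (95% interval -0.29 to 0.58, adjusted p = 0.655 by limma). The spread in Bcl11bfl/fl:Cd4-Cre was wide, with a coefficient of variation of 31.8%, and replicate 2 was the highest of all 12 libraries and replicate 3 the lowest.

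Of the 9 genes tested, 3 passed in Bcl11bm/m against wild-type, 2 higher and 1 lower, where 17.3% of all features passed, 9.92% higher and 7.39% lower. The groups did not overlap for 4 of the 9 genes, where this held for 25.4% of all features. The median difference of the 9 genes was -0.08 and that of all features -0.02. In Bcl11bfl/fl:Cd4-Cre against wild-type, 1 of the 9 genes passed, higher, where 14.5% of all features passed, 4.65% higher and 9.86% lower, and the groups did not overlap for that 1 gene, where this held for 16.1% of all features. The medians were -0.02 and -0.09. Between the mutants 1 gene passed, lower in Bcl11bm/m, where 10.2% of all features passed, 7.63% higher and 2.60% lower, and 3 of the 9 genes did not overlap, where this held for 26.7% of all features. The medians were -0.10 and 0.09. With 9 genes these shares are near the background and are not read as a result about the set. The split of calls over all features moved with the scaling, from 501 higher and 1063 lower to 834 and 966 under median-ratio scaling and to 948 and 825, with most calls higher, when scaled without short RNA features in Bcl11bfl/fl:Cd4-Cre against wild-type, and from 822 and 280 to 565 and 531 under median-ratio scaling between the mutants. In Bcl11bm/m against wild-type it was 1069 and 797, but 1218 and 1257 with quantile normalization and 1631 and 1973 with library quality weights, so that the majority turned, and 1485 and 791 when scaled without short RNA features. Both comparisons with wild-type used the same 5 wild-type libraries.

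**Figure D2:**
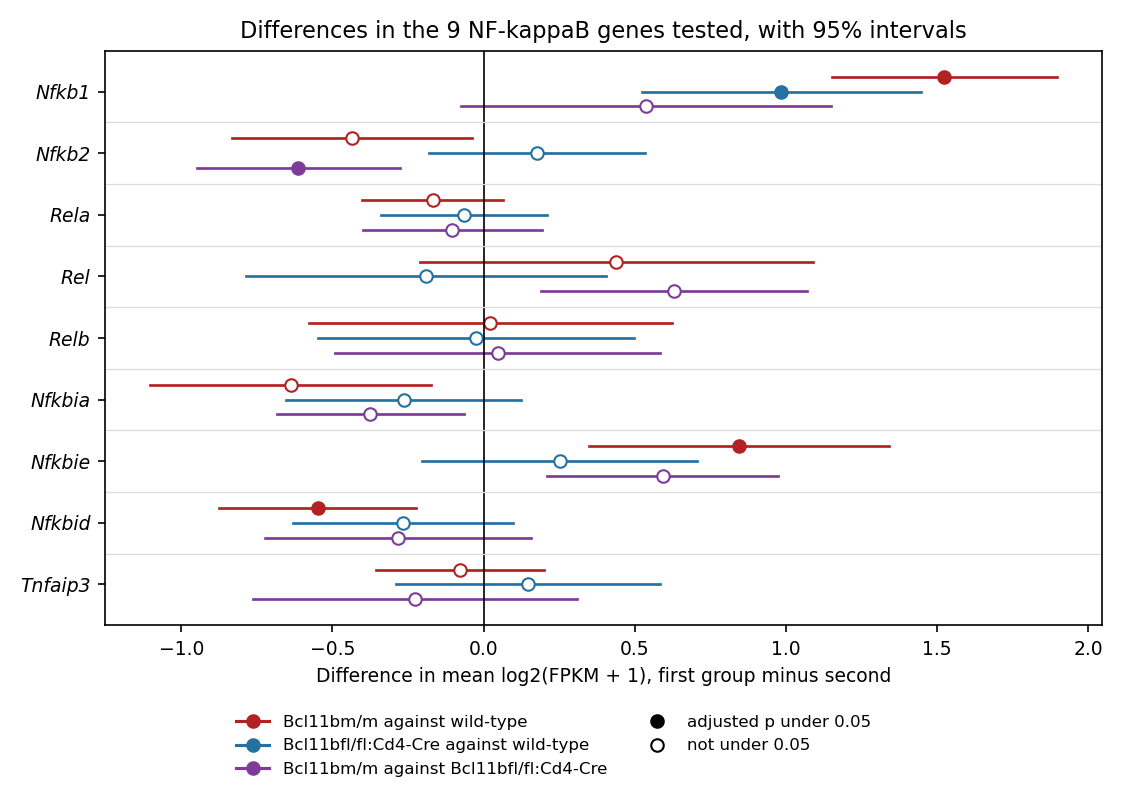
Differences in mean log2(FPKM + 1) of the 9 genes tested, with 95% intervals from limma, for Bcl11bm/m minus wild-type (red), Bcl11bfl/fl:Cd4-Cre minus wild-type (blue) and Bcl11bm/m minus Bcl11bfl/fl:Cd4-Cre (purple). Filled points had an adjusted p under 0.05, which holds for 3, 1 and 1 of the 9 genes, and Nfkb1 reached the largest differences, 1.52 and 0.99.

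Ratios between genes within a library do not depend on how libraries are scaled to each other and are given as a description. Some pairs join a gene that was higher in Bcl11bm/m to a gene with a lower mean, so their ratios restate those differences. No share of other gene pairs without overlap was computed, so nothing is read from groups that a ratio sets apart. The ratio of Nfkb1 to Rela FPKM was 0.497, 0.554, 0.623, 0.530 and 0.558 in wild-type, 2.41, 1.54 and 1.68 in Bcl11bm/m, and 1.27, 0.941, 1.55 and 1 in Bcl11bfl/fl:Cd4-Cre libraries. Rela thus exceeded Nfkb1 in all 5 wild-type libraries and Nfkb1 exceeded Rela in all 3 Bcl11bm/m libraries, while Bcl11bfl/fl:Cd4-Cre libraries lay between, with replicate 3 inside the Bcl11bm/m range. The ratio of Nfkb2 to Nfkb1 was 0.280 to 0.461 in wild-type, 0.0789 to 0.0957 in Bcl11bm/m and 0.150 to 0.242 in Bcl11bfl/fl:Cd4-Cre, with no overlap between any of the groups. The ratio between the canonical inhibitors also did not overlap between Bcl11bm/m and the other groups. Nfkbie stood at 0.145 to 0.201 of Nfkbia in wild-type, at 0.464 to 0.521 in Bcl11bm/m and at 0.182 to 0.290 in Bcl11bfl/fl:Cd4-Cre, where only replicate 4 was inside the wild-type range. By contrast, Nfkbid stood at 0.0603 to 0.0785 of Nfkbia in wild-type, 0.0512 to 0.0838 in Bcl11bm/m and 0.0561 to 0.0854 in Bcl11bfl/fl:Cd4-Cre, and these ranges overlapped. The ratio of Nfkbia to Rela also overlapped, at 2.72 to 4.01, 2.015 to 2.87 and 2.55 to 2.87 in the same order. That of Tnfaip3 to Nfkbia was 0.2087 to 0.3085, 0.3598 to 0.4386 and 0.2276 to 0.5485, where Bcl11bfl/fl:Cd4-Cre overlapped both other groups.

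**Figure D3:**
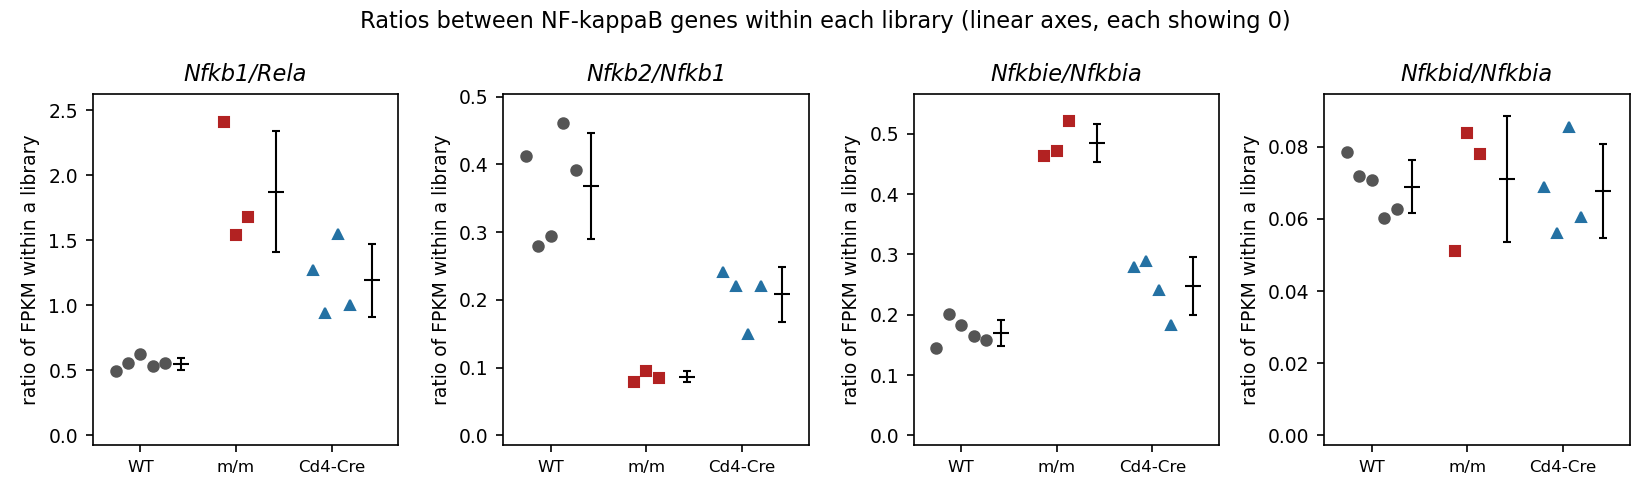
Ratios of FPKM between pairs of NF-kappaB genes within each library, on linear axes that show 0. Points are libraries and black bars the mean and SD, for wild-type (WT), Bcl11bm/m (m/m) and Bcl11bfl/fl:Cd4-Cre (Cd4-Cre). Nfkb1/Rela is above 1 in all 3 Bcl11bm/m libraries and in no wild-type library, Nfkbie/Nfkbia is 0.464 to 0.521 in Bcl11bm/m against at most 0.290 elsewhere, and Nfkbid/Nfkbia overlaps in all groups.

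The order of the genes by mean FPKM, a value per transcript length, was Nfkbia (132.6), Rela (41.2), Tnfaip3 (35.8), Nfkb1 (22.8), Nfkbie (22.6), Nfkbid (8.96), Nfkb2 (8.30), Rel (3.59) and Relb (1.83) in wild-type, with Bcl3 last. The ranges of Rela and Tnfaip3, Nfkb1 and Nfkbie, Nfkbid and Nfkb2, Rel and Relb, and Relb and Bcl3 overlapped, so these neighbours did not differ beyond their spread. Within each wild-type library, however, Rela exceeded Tnfaip3 in 5 of 5, and Relb exceeded Bcl3 in 5 of 5. In Bcl11bm/m Nfkb1 moved up to the 2nd place (67.8 FPKM after 83.7 FPKM for Nfkbia, with overlapping ranges) and Nfkbie to the 3rd (40.4 FPKM), ahead of Rela (36.4 FPKM) in 2 of 3 libraries. In Bcl11bfl/fl:Cd4-Cre Nfkb1 was also in the 2nd place (47.8 FPKM), with a range that overlapped those of Tnfaip3 (41.0 FPKM) and Rela (39.5 FPKM). Nfkb1 had the largest coefficient of variation of the 9 genes tested in Bcl11bfl/fl:Cd4-Cre, 36.9%, and one of 13.6% in wild-type.

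Single libraries carried much of the spread. Wild-type replicate 1 was the lowest of its group in 7 of the 9 genes, and 17.1% of its FPKM lay in short RNA features, the largest share of all 12 libraries, where the others were at 7.02 to 14.9%. Its part in the comparisons was not tested beyond leaving it out, after which 4 of the 9 genes passed in Bcl11bm/m against wild-type and 1 in Bcl11bfl/fl:Cd4-Cre. Bcl11bfl/fl:Cd4-Cre replicate 3 was the highest of its group in 7 of the 9 genes. It also had the lowest Rag1 of all libraries (438 FPKM, where the rest of its group was at 975 to 1297 FPKM) and the highest Klf2 of its group (34.8 FPKM, where the rest was at 5.92 to 10.8 FPKM), a factor of post-selection thymocytes. Bcl11bm/m replicate 1 had the highest Nfkb1, Nfkbia, Nfkbie and Bcl3 of its group and the highest Klf2 (31.9 FPKM, where replicates 2 and 3 were at 11.6 and 10.1 FPKM), but also the highest Rag1 of its group (980 FPKM, where they were at 899 and 874 FPKM) and the highest Ptcra (12.2 FPKM, where they were at 5.33 and 5.90 FPKM). Their part in the level of Nfkb1 was not tested.

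The other genes of the pathway, in 7 groups of 48 genes by role, had 40 members tested. In Bcl11bm/m against wild-type 7 rose and 3 fell, where 9.92% of all features were higher and 7.39% lower, with a median of 0.05 where that of all features was -0.02. Against the same wild-type libraries 3 rose and 2 fell in Bcl11bfl/fl:Cd4-Cre, where 4.65% of all features were higher and 9.86% lower, with a median of 0.09 where that of all features was -0.09. Between the mutants 2 were higher and 2 lower in Bcl11bm/m, where 7.63% and 2.60% of all features were. The counts were not tested against these shares, and nothing is read from them about the pathway.

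At the start of the pathway, the gene of the cytokine TNF was at 0.914 to 3.90 FPKM in wild-type and 8.78 to 10.9 FPKM in Bcl11bm/m, and Tnf rose by 1.82 (SE 0.34, adjusted p = 0.00847 by limma). In Bcl11bfl/fl:Cd4-Cre it was at 4.59, 1.22, 11.6 and 7.49 FPKM, with a difference of 0.99 that did not pass (adjusted p = 0.201 by limma). Its main receptor gene Tnfrsf1a moved the other way, from 32.9 to 51.5 FPKM in wild-type to 13.4 to 18.4 FPKM in Bcl11bm/m (-1.38, SE 0.17, adjusted p = 0.0011 by limma) and 26.6 to 32.0 FPKM in the Bcl11bfl/fl:Cd4-Cre libraries (-0.53, SE 0.14, adjusted p = 0.033 by limma). The call of Tnfrsf1a in Bcl11bfl/fl:Cd4-Cre was kept in 1 of 9 fits with a library left out (adjusted p up to 0.0971 by limma) and that in Bcl11bm/m in 8 of 8. The decrease of Tnfrsf1a was larger in Bcl11bm/m, by 0.84 (SE 0.12, adjusted p = 0.0107 by limma). Tnfrsf1b, the second TNF receptor gene, was at 0.982 to 1.45 FPKM in Bcl11bm/m, 1.49 to 3.94 FPKM in wild-type and 2.22 to 4.02 FPKM in the Bcl11bfl/fl:Cd4-Cre libraries. It was lower in Bcl11bm/m than in wild-type (-0.75, adjusted p = 0.0417 by limma) and than in the Bcl11bfl/fl:Cd4-Cre libraries (-0.87, adjusted p = 0.0279 by limma), the former called in 1 of 8 and the latter in 3 of 7 fits with a library left out. Of the 5 ligands and 12 receptors or proximal adaptors, 3 and 6 were tested.

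Downstream of the receptors, Ripk1, a kinase scaffold of the TNF receptor complex, rose in both mutants, by 0.86 in Bcl11bm/m (SE 0.16, adjusted p = 0.00808 by limma) and 0.73 in Bcl11bfl/fl:Cd4-Cre (SE 0.16, adjusted p = 0.0143 by limma), from 6.54 to 10.6 FPKM in wild-type to 14.9 to 18.3 and 12.4 to 18.7 FPKM. Ikbke, an IKK-related kinase, did likewise, by 0.75 (SE 0.12, adjusted p = 0.00462 by limma) and 0.91 (SE 0.12, adjusted p = 0.00385 by limma). These calls of Ripk1 and Ikbke held with each library left out in turn. Map3k14, the kinase at the head of the non-canonical branch, and Tab1, an adaptor of the TAK1 kinase, rose in Bcl11bm/m, by 1.12 (SE 0.26, adjusted p = 0.0204 by limma) and 0.75 (SE 0.16, adjusted p = 0.0129 by limma). In Bcl11bfl/fl:Cd4-Cre their differences of 0.91 and 0.29 did not pass (adjusted p = 0.076 and 0.386 by limma). Those between the mutants, 0.21 and 0.46, did not pass either (adjusted p = 0.697 and 0.225 by limma). The subunits of IKK itself, Chuk, Ikbkb and Ikbkg, did not pass in either mutant, with differences between -0.27 and 0.32. All 9 genes of the kinase group were tested, and 3 rose and none fell in Bcl11bm/m, 1 rose and none fell in Bcl11bfl/fl:Cd4-Cre, and none passed between the mutants, where 17.3%, 14.5% and 10.2% of all features passed, so that with 9 genes nothing is read from these counts.

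Among the 7 TRAF and cIAP genes, adaptors and ubiquitin ligases below TNF family receptors, Traf5 rose by 0.99 (SE 0.26, adjusted p = 0.0339 by limma) and Traf1 fell by 1.43 (SE 0.37, adjusted p = 0.0295 by limma) in Bcl11bm/m. The difference of Traf1 in Bcl11bfl/fl:Cd4-Cre was -1.08 (adjusted p = 0.0639 by limma), and between the mutants it was -0.35 (adjusted p = 0.51 by limma). Birc3 rose by 0.42 in Bcl11bfl/fl:Cd4-Cre (SE 0.12, adjusted p = 0.0399 by limma), where its difference in Bcl11bm/m was 0.39 (adjusted p = 0.0741 by limma). Traf5 was also higher in Bcl11bm/m than in the Bcl11bfl/fl:Cd4-Cre libraries (0.72, SE 0.14, adjusted p = 0.024 by limma), a call kept in 3 of 7 fits with a library left out. Of the 9 ubiquitin ligases, deubiquitinases and adaptors, Otud7b, a deubiquitinase, rose by 0.51 in Bcl11bm/m (SE 0.13, adjusted p = 0.0326 by limma), and Tax1bp1, an adaptor of the enzyme encoded by Tnfaip3, fell by 0.65 in Bcl11bfl/fl:Cd4-Cre (SE 0.11, adjusted p = 0.00581 by limma). The difference of Otud7b in Bcl11bfl/fl:Cd4-Cre was 0.35 (adjusted p = 0.108 by limma), and between the mutants it was 0.16 (adjusted p = 0.487 by limma). Tax1bp1 was at 70.4 to 85.1 FPKM in wild-type, 70.8 to 74.4 FPKM in Bcl11bm/m and 45.8 to 53.2 FPKM in the Bcl11bfl/fl:Cd4-Cre libraries, so that the mutants differed by 0.54 (SE 0.09, adjusted p = 0.0141 by limma). Neither of the 2 other IkappaB genes (Nfkbib and Nfkbiz) passed in any comparison, and neither had an unadjusted p under 0.05 by limma. Malt1, which encodes a paracaspase that relays antigen receptor signals to IKK, had a difference of 0.44 in Bcl11bm/m against wild-type that did not pass (adjusted p = 0.0589 by limma). With a library left out, Traf1, Traf5, Otud7b and Birc3 lost their calls in 4 of 8, 5 of 8, 6 of 8 and 7 of 9 fits, Map3k14 in 2 of 8, Tab1 in 1 of 8, and Tax1bp1 in 2 of 7 between the mutants.

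**Figure D4:**
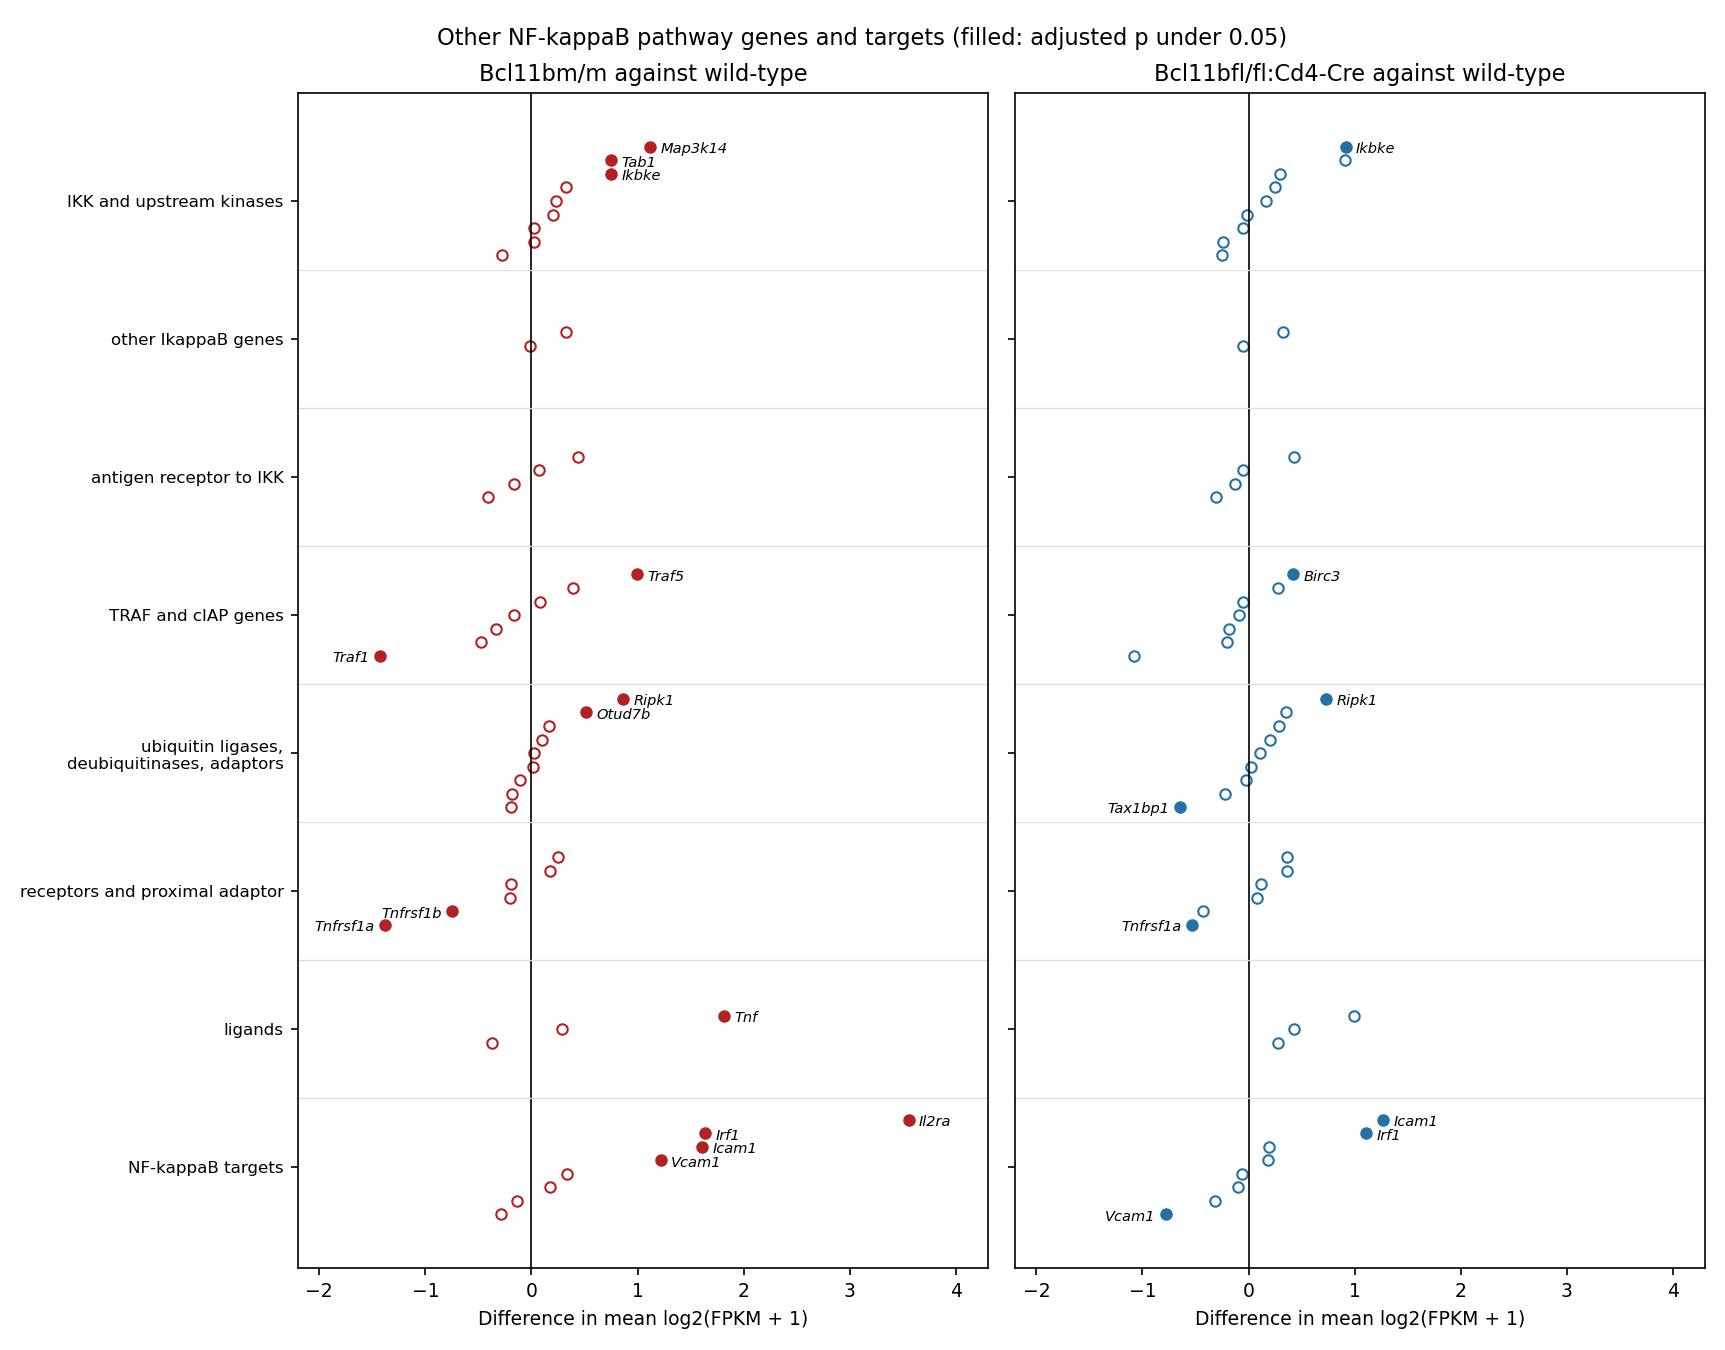
Differences in mean log2(FPKM + 1) from wild-type of the other NF-kappaB pathway genes and of 8 target genes tested, by role, in Bcl11bm/m (left) and Bcl11bfl/fl:Cd4-Cre (right). Each point is a gene, filled and named where the adjusted p was under 0.05. Il2ra has the largest difference in Bcl11bm/m, 3.55, and Vcam1 lies on opposite sides of 0 in the mutants. Vcam1 passed the filter on low values only through its level in Bcl11bm/m.

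Of 14 genes chosen as known NF-kappaB targets outside the feedback inhibitors, 8 were tested. In Bcl11bm/m 4 rose and none fell, where 17.3% of all features passed, in Bcl11bfl/fl:Cd4-Cre 2 rose and 1 fell, where 14.5% passed, and between the mutants 2 were higher in Bcl11bm/m, where 10.2% passed. With 8 genes, of which Vcam1 reached the mean of 1 FPKM only through Bcl11bm/m, nothing is read from these counts about NF-kappaB targets. Il2ra, the alpha chain of the interleukin-2 receptor, was at 2.68 to 5.25 FPKM in wild-type, 117, 38.7 and 33.5 FPKM in Bcl11bm/m and 2.19 to 8.18 FPKM in the Bcl11bfl/fl:Cd4-Cre libraries. It rose by 3.55 in Bcl11bm/m (SE 0.39, adjusted p = 7.27e-04 by limma) and differed between the mutants by 3.37 (SE 0.52, adjusted p = 0.0121 by limma). Irf1, a transcription factor also induced by interferon, rose in both mutants, by 1.64 in Bcl11bm/m (SE 0.26, adjusted p = 0.0039 by limma) and 1.11 in Bcl11bfl/fl:Cd4-Cre (SE 0.29, adjusted p = 0.033 by limma). Its libraries ran from 16.5 to 28.8 FPKM in wild-type, 59.9 to 119 FPKM in Bcl11bm/m and 30.5 to 98.2 FPKM in the Bcl11bfl/fl:Cd4-Cre libraries, the highest of the last group again in replicate 3. Icam1, an adhesion molecule, rose by 1.61 (SE 0.32, adjusted p = 0.0107 by limma) and 1.27 (SE 0.30, adjusted p = 0.023 by limma). Vcam1, another adhesion molecule, rose by 1.22 in Bcl11bm/m (SE 0.30, adjusted p = 0.0249 by limma) and fell by 0.78 in Bcl11bfl/fl:Cd4-Cre (SE 0.18, adjusted p = 0.021 by limma), from 0.270 to 1.18 FPKM in wild-type to 1.62 to 5.49 and 0.0285 to 0.115 FPKM, and the mutants differed by 2 (SE 0.28, adjusted p = 0.0101 by limma). Since the filter kept Vcam1 for its level in Bcl11bm/m (mean 3.61 FPKM, where wild-type was at 0.885 and Bcl11bfl/fl:Cd4-Cre at 0.0792 FPKM), its differences involving Bcl11bm/m are partly fixed by that choice. The calls of Irf1 and Icam1 in Bcl11bfl/fl:Cd4-Cre were lost in 6 and 4 of 9 fits with a library left out, and those of Vcam1 in 2 of 8 in Bcl11bm/m and 2 of 9 in Bcl11bfl/fl:Cd4-Cre.

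Genes of other cell types and stages moved with the same comparisons, in which 17.3% of all features passed in Bcl11bm/m and 14.5% in Bcl11bfl/fl:Cd4-Cre. Of 8 genes of post-selection thymocytes, all tested, 5 rose and 1 fell in Bcl11bm/m and 4 rose and 1 fell in Bcl11bfl/fl:Cd4-Cre, and their summed level ran from 158 to 286 FPKM in wild-type, 381 to 515 FPKM in Bcl11bm/m and 186 to 413 FPKM in the Bcl11bfl/fl:Cd4-Cre libraries. Il7r, the receptor for interleukin-7, which pre-selection DP thymocytes lack, was at no more than 0.0885 FPKM in wild-type, at 12.2 to 25.8 FPKM in Bcl11bm/m and at 1.45 to 8.96 FPKM in the Bcl11bfl/fl:Cd4-Cre libraries, and it passed the filter only through the mutants, as did S1pr1, a receptor used in thymic egress (means of 0.0216 FPKM in wild-type, 1.76 FPKM in Bcl11bm/m and 1.67 FPKM in Bcl11bfl/fl:Cd4-Cre). These 2 genes are among those counted as higher in each mutant. The genes that fell are both known to rise on positive selection, Cd5 in Bcl11bm/m (-1.37, adjusted p = 0.0122 by limma) and Cd69 in Bcl11bfl/fl:Cd4-Cre (-1.46, adjusted p = 0.0356 by limma). Of 10 genes of pre-selection DP thymocytes 5 fell in Bcl11bm/m and none passed in Bcl11bfl/fl:Cd4-Cre. Of 8 NK cell genes 4 were tested, and these rose in Bcl11bm/m, led by Gzma, whereas 1 rose and 1 fell in Bcl11bfl/fl:Cd4-Cre, the latter Prf1, which encodes perforin (-0.80, adjusted p = 0.0257 by limma). Klrb1c, at a mean of 0.155 FPKM in wild-type, 4.22 FPKM in Bcl11bm/m and 7.34 FPKM in the Bcl11bfl/fl:Cd4-Cre libraries, was among those tested only through its level in the mutants. Its Bcl11bfl/fl:Cd4-Cre libraries were at 5.14, 0.2995, 21.8 and 2.11 FPKM, so that replicate 3 carried most of that mean. Replicate 3 also had the highest Nfkb1 of its group. The defining NK cell gene Ncr1 was at 0 in all but 1 library (0.192 FPKM). The summed level of the NK list was 18.9 to 72.9, 229 to 437 and 66.7 to 194 FPKM in wild-type, Bcl11bm/m and Bcl11bfl/fl:Cd4-Cre. Of 9 myeloid genes 5 were tested, with 2 higher in Bcl11bm/m (Fcgr3 and Mpeg1, at wild-type means of 0.230 and 0.712 FPKM, tested only through the groups where they are high) and 2 lower in Bcl11bfl/fl:Cd4-Cre, summed levels of 6.57 to 12.9, 11.97 to 51.2 and 1.70 to 8.10 FPKM, and Cd14 at 0 in 10 of 12 libraries. Of 8 B cell genes 3 were tested, and Cd79a, a subunit of the B cell receptor, rose in Bcl11bfl/fl:Cd4-Cre (1.02, adjusted p = 0.0237 by limma) from at most 0.446 FPKM in wild-type, having passed the filter only through the mutants, and was at 10.7, 1.08 and 0.210 FPKM in Bcl11bm/m, the highest in replicate 1, which also had the highest Nfkb1 and Nfkbie. That library was also the highest of its group for the myeloid genes Lyz2 (37.7 FPKM) and Mpeg1 (4.33 FPKM). It was the lowest of its group for the myeloid gene Itgam (0.571 FPKM) and the NK cell gene Klrb1c (0.301 FPKM). The B cell sums were 15.3 to 22.4, 9.95 to 39.4 and 12.8 to 29.8 FPKM. Of 9 stromal genes 2 were tested, and Pecam1, an endothelial adhesion molecule that leukocytes also express, rose by 1.48 in Bcl11bm/m (adjusted p = 0.00106 by limma) and 0.96 in Bcl11bfl/fl:Cd4-Cre (adjusted p = 0.0134 by limma). The stromal sums, which Pecam1 made up for the most part, were 38.9 to 64.6, 144 to 164 and 82.4 to 129 FPKM, and Col3a1 was at 0 in all libraries. None of the 3 erythroid genes tested of 6 passed against wild-type in limma (at an unadjusted p under 0.05, Hba-a1 in Bcl11bfl/fl:Cd4-Cre, -1.83, adjusted p = 0.0583), and between the mutants 2 passed, higher in Bcl11bm/m, with sums of 2.38 to 34.6, 10.6 to 29.8 and 0.850 to 5.08 FPKM. The part of any of these populations in the levels of Nfkb1, Nfkbie, Nfkbid and the target genes was not tested.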

How the data were processed

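Expression was measured by RNA-seq in 12 libraries, and the authors deposited it as a table of FPKM per gene symbol, already normalized to library size and transcript length. The submitters' processing notes name TopHat2, Cufflinks 2.1.1 and the mouse build mm9. The library kit and its strand are described differently in the sources and were not settled. Values were transformed to log2(FPKM + 1), so that fold changes of low genes are understated. Features averaging 1 FPKM or more over all libraries were fitted with limma 3.58.1 (R 4.3.3) on the groups compared, with an intensity trend, and p-values were adjusted by Benjamini-Hochberg over all 10780 features, with a threshold of 0.05. Bcl3, under the filter, was tested by an exact permutation test. The table holds no read numbers, so depth was estimated from the steps between low values: 63.8 to 70.8% of them lay within 0.1 of a whole fragment, where 20% would by even spread. All 10 members are named, and of the other pathway genes those that passed a test. Library ratios, marker sums and motif matches were computed with Python 3.11.15, numpy 2.4.6 and pandas 2.3.3. The fit was tested on simulated data. Alternatives were another pseudocount, other filters, 3 scalings, a single fit of all groups, library quality weights, a replicate block and leaving out each library. The members and lists were chosen with earlier results of these data known. A result on 1 gene of the pathway lists is not reported here.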

Additional observations from a re-analysis of the deposited data

Results flagged for a closer look

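In 4 of the 54 groups of libraries examined, 1 library stood apart from the rest of its group by Dixon's criterion, where chance gives about 1 in 20, or 2.7 groups. The count is near that number and most of it comes from the same library, so nothing is read from it. Wild-type replicate 1 was low for Nfkb1 (17.57 FPKM, where the other 4 were at 23.3 to 25.85 FPKM), Relb (0.6474 FPKM, where they were at 1.893 to 2.321 FPKM) and Tnfaip3 (28.6 FPKM, where they were at 35.62 to 38.84 FPKM). Wild-type replicate 4 was low for Rel (1.332 FPKM, where the others were at 3.665 to 4.557 FPKM).

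The mutants differed from each other, by the direct test of Bcl11bm/m minus Bcl11bfl/fl:Cd4-Cre in limma, in 8 of the genes named. As the pathway and target genes were named because they passed a test, this one included, the count is not a share of the pathway and is not read against the 10.2% of all features that passed. Nfkb2 (-0.61, adjusted p = 0.0401), Tnfrsf1a (-0.84, adjusted p = 0.0107) and Tnfrsf1b (-0.87, adjusted p = 0.0279) were lower in Bcl11bm/m. Bcl11b (1.79, adjusted p = 3.84e-04), Il2ra (3.37, adjusted p = 0.0121), Vcam1 (2, adjusted p = 0.0101), Traf5 (0.72, adjusted p = 0.024) and Tax1bp1 (0.54, adjusted p = 0.0141) were higher. Vcam1 passed the filter on low values only through its level in Bcl11bm/m. Its difference is therefore partly fixed by that choice, and nothing is read from its p-value.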

How the results depend on the processing

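The table gives FPKM and no counts, so depth is an estimate, low genes such as Relb and Bcl3 are imprecise, and the age of the Bcl11bfl/fl:Cd4-Cre mice and their deeper libraries cannot be told apart from genotype. Under alternatives that keep every library, 216 of 246 values of the NF-kappaB genes kept their direction and side of the threshold, 7 lost a call, 13 gained one and 10 changed sign. With a library left out these were 202, 18, 4 and 16 of 240. The cause of these changes was not tested.

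Of the 9 NF-kappaB genes, 3 passed in Bcl11bm/m against wild-type, 5 with quantile normalization, 2 without a filter on low values and 1 to 4 with a library left out (1 without wild-type replicates 2, 3 or 5 or any Bcl11bm/m replicate, 4 without wild-type replicate 1). In Bcl11bfl/fl:Cd4-Cre against wild-type 1 passed under every alternative. Between the mutants 1 passed, 0 without a filter on low values (limma; 4 at an unadjusted p under 0.05 with the filter), 2 with median-ratio scaling, 2 with quantile normalization, 2 with scaling without short RNA features, 4 with library quality weights, and 0 to 2 with a library left out (0 without any Bcl11bm/m replicate or Bcl11bfl/fl:Cd4-Cre replicates 1 or 4, 2 without replicate 3). Over all features the calls of 1866, 1564 and 1102 became 3604, 3176 and 2173 with quality weights. With a mean of at least 5 FPKM those in Bcl11bm/m became 1189 against wild-type and 656 between the mutants. With a library left out they ran from 1021 to 2349, 700 to 2678 and 313 to 1121. The first fell to 1225 and 1021 without Bcl11bm/m replicates 1 and 2. The second was 2678, 938 and 865 without wild-type replicates 1, 2 and 5 and 700, 778 and 773 without Bcl11bfl/fl:Cd4-Cre replicates 1, 3 and 4. The third was 327 and 313 without Bcl11bm/m replicates 2 and 3 and 392, 649 and 711 without Bcl11bfl/fl:Cd4-Cre replicates 1, 2 and 4. Splits into higher and lower between the mutants were 563 and 491 with quantile normalization. The median of all features moved by 0.13 in Bcl11bfl/fl:Cd4-Cre against wild-type when scaled without short RNA features, and by -0.10 between the mutants with median-ratio scaling.

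The replicate numbers are shared across groups but correlations of same-numbered libraries ran from -0.211 to 0.152, so the numbers do not pair the libraries. With a replicate block the calls over all features were 283, 456 and 30, and those of the NF-kappaB genes 0, 1 and 0, with Nfkb1 at an adjusted p = 0.0695 in Bcl11bm/m and 0.047 in Bcl11bfl/fl:Cd4-Cre by limma.

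Signs changed only for differences that did not pass. Rela in Bcl11bfl/fl:Cd4-Cre against wild-type was 0.0405, 0.0437 and 0.0844 with median-ratio, quantile and short-RNA-free scaling, and -0.157 to 0.0086 with a library left out. Relb in Bcl11bm/m against wild-type was -0.17 with quantile normalization, -0.14 with quality weights and -0.16 to 0.23 with a library left out. Relb in Bcl11bfl/fl:Cd4-Cre was 0.0559 and 0.0877 with median-ratio and short-RNA-free scaling and -0.21 to 0.0483 with a library left out, and between the mutants it was -0.0289, -0.0879 (median-ratio, quantile) and -0.0621 to 0.25. Tnfaip3 was 0.019 in Bcl11bm/m with short-RNA-free scaling and -0.0348 to 0.31 in Bcl11bfl/fl:Cd4-Cre with a library left out, and Bcl3 between the mutants -0.31 to 0.35.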
